A study of Drosophila melanogaster with 2 samples.

Results

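Aminoacyl-tRNA synthetases are the enzymes that join each amino acid to its tRNA, and their genes are described here by the binding of 1 tagged chromatin protein, CG7372, which the annotation calls Phs. The genes were chosen by name: a protein-coding gene of the Ensembl annotation was taken if its symbol holds the abbreviated name of an amino acid directly followed by RS, with or without the ending -m for mitochondrial. This rule found 35 of 13968 protein-coding genes on the chromosome arms, and it used no measured value. Of these, 20 have no -m ending and are called cytosolic, and 15 are mitochondrial.

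Phs was profiled by ChIP-seq, in which DNA bound by a protein is pulled down and sequenced. The labels describe transgenic flies of 1 strain with an insertion that yields CG7372-eGFP, a fusion to green fluorescent protein, which was pulled down with an antibody against GFP. Whole embryos aged 0 to 24 h made up the only group, with 2 biological replicates numbered 1 and 2, and chromatin was sonicated to fragments of 200 to 800 bp. Untagged or untreated embryos were not analysed here, nor was any control library, so binding at these genes cannot be told apart from signal that any such experiment gives at gene starts. The whole embryo pools all cell types and ages, so that strong binding in few cells and weak binding in many cannot be told apart. The files are peak lists without read counts: sequencing depth is unknown, and the labelled stage could not be checked against marker genes.

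In animal cells protein is made in the cytosol and, from the mitochondrial genome, inside mitochondria. Each compartment needs charged tRNAs, and separate nuclear genes supply most of the enzymes. Some genes serve both compartments: in humans, 1 gene makes both forms of the lysyl enzyme and another both forms of the glycyl enzyme. The fly annotation holds no LysRS-m or GlyRS-m, and also no ThrRS-m, HisRS-m or GlnRS-m. The name cytosolic therefore does not mean that a product is absent from mitochondria. Nor does a missing -m gene mean that it is present there. For glutamine tRNA, the mitochondrial amidotransferase described below turns attached glutamate into glutamine. Most synthetases charge tRNA with a single amino acid. GluProRS joins the glutamyl and the prolyl enzyme in one protein, and alpha-PheRS and beta-PheRS are the subunits of the cytosolic phenylalanyl enzyme.

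A gene was called bound if the summit of a peak, its point of highest signal, lay within 500 bp of any of its annotated transcript starts. The peaks were those of the conservative list, kept by the authors at an irreproducible discovery rate (IDR) of 0.01. By this call 10 of the 35 synthetase genes (28.6%) were bound, beside 2330 of all 13968 protein-coding genes (16.7%). The bound genes were 9 of the 20 cytosolic ones (45%) and 1 of the 15 mitochondrial ones (6.67%). Taking replicate 2 alone, without replicate 1, gave 6 bound genes, 6 cytosolic and 0 mitochondrial: 5 of the 10 above, and beta-PheRS, which was newly called. Those 6 were 17.1% of the synthetase genes, beside 13.0% of all genes. Giving each summit only to the nearest start left 5 (14.3%), none of them mitochondrial, beside 12.07% of all genes, so that the share of synthetase genes was then close to that of all genes. The genes are not replicates of a condition and the design has 1 group, so the cytosolic and mitochondrial counts carry no test.

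The strongest bound gene was GluProRS (FBgn0005674, minus strand of 3R). Its peak had a signal of 288.4 in the authors' units, whose scale is not stated, and ranked 307 of 4593 in the conservative list. The summit lay 137 bp upstream of the gene's start, at 3R:23958528. It was followed by SerRS (FBgn0031497), with a signal of 201.9, rank 592 and a summit 2 bp upstream of the start, at 2L:3037405. IleRS (FBgn0027086) had a signal of 191.4, rank 651 and a summit 195 bp upstream, at 3L:22288470. These 3 genes stood in the upper part of the list. ThrRS (FBgn0027081) followed with a signal of 164.7, rank 849 and a summit 246 bp upstream, at 2L:12103505. ArgRS (FBgn0027093) had a signal of 141.6, rank 1100 and a summit 172 bp upstream, at X:15844317.

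The only bound mitochondrial gene was ProRS-m (FBgn0027082), which encodes the prolyl enzyme of mitochondria. It stood sixth of the bound synthetase genes, with a signal of 94.1, rank 2072 and a summit 167 bp upstream, at 3L:2652017. Its cytosolic counterpart is part of GluProRS, the strongest bound member. By name, proline was thus the only amino acid with both a cytosolic and a mitochondrial gene bound. LysRS and ThrRS, both bound, have no -m gene in the annotation, so which compartments their products serve is not known here. The GluProRS and ProRS-m summits both lay nearer to a neighbour's start. LysRS (FBgn0027084) was the only gene bound downstream of its start. Its peak had a signal of 61.2 and rank 3756, and the summit lay 427 bp downstream, in an intron, at X:9608414. AsnRS (FBgn0086443) had the weakest call, with a signal of 54.3, rank 4108 and a summit 96 bp upstream, at 2L:19132050. A second AsnRS summit, 296 bp upstream, had a signal of only 14.1.

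The sequence at these summits is shown because CGTAT, a word common at the summits of the list, was found at 1 of the 10 of the bound synthetase genes. With 10 windows this is a description of the letters, and the difference was not tested. It is given from the Release 6 reference (dm6), plus strand, for 50 bp to either side of the summit, cut where an annotated exon begins. Capitals mark CGTAT or TATAAA on either strand.
GluProRS, 3R:23958478-23958578: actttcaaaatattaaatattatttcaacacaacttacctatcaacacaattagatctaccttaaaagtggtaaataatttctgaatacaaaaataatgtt
IleRS, 3L:22288420-22288520: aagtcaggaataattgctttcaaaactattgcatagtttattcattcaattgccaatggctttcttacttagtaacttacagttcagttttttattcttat
ThrRS, 2L:12103455-12103555: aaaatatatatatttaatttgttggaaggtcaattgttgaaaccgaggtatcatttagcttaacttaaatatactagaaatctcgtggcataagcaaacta
ArgRS, X:15844267-15844367: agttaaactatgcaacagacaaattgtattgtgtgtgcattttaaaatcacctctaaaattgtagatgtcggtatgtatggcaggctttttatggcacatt
ProRS-m, 3L:2651967-2652067: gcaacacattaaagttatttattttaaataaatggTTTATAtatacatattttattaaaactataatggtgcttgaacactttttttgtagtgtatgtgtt
AsnRS, 2L:19132000-19132100: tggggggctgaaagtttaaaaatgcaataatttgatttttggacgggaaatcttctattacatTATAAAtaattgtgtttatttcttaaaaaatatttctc
LysRS, X:9608364-9608421: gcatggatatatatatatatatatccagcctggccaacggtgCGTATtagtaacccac

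CGTAT, searched on both strands in the 101 bp centred on each summit, was found at 1 of the 10 strongest summits of the bound synthetase genes, beside 1414 of all 4593 summits of the list (30.8%). The 1 summit was that of LysRS, the intronic one. In a window of 100 bp to either side it was again found at LysRS alone, beside 40.3% of all summits. The windows were rich in A and T. Their GC content ranged from 20.8% at ProRS-m to 47.5% at LysRS, with a median of 26.7%, beside 36.6% over all summits. The longest run of A and T in each window had a median of 13.5 bp, beside 9.0 bp over all summits. TATAAA, the core of the TATA box, was found on either strand at 4 of 10, namely AsnRS, AspRS, SerRS and ProRS-m, beside 17.03% of all summits. CGTAT and TATAAA may overlap in the letters TAT. Another 5 words had no match in the 101 bp at any of the 10: TATCGATA (the DNA replication-related element, DRE), GGTCACAC (the core of core promoter motif 1), CAGCTG (an E-box), GAGAG (bound by GAGA factor) and GCGCGC. Of all summits, 1.20% held the DRE, 0.631% motif 1, 3.75% the E-box, 9.43% GAGAG and 1.33% GCGCGC. The absence depended on the window. Within 100 bp to either side, the E-box and GAGAG were found at ArgRS, beside 8.84% and 21.45% of all summits. Motif 1 was found there at ProRS-m, beside 1.57%, and TATAAA at 6 of 10, beside 29.9%. The DRE and GCGCGC were again absent.

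**Figure D1:**
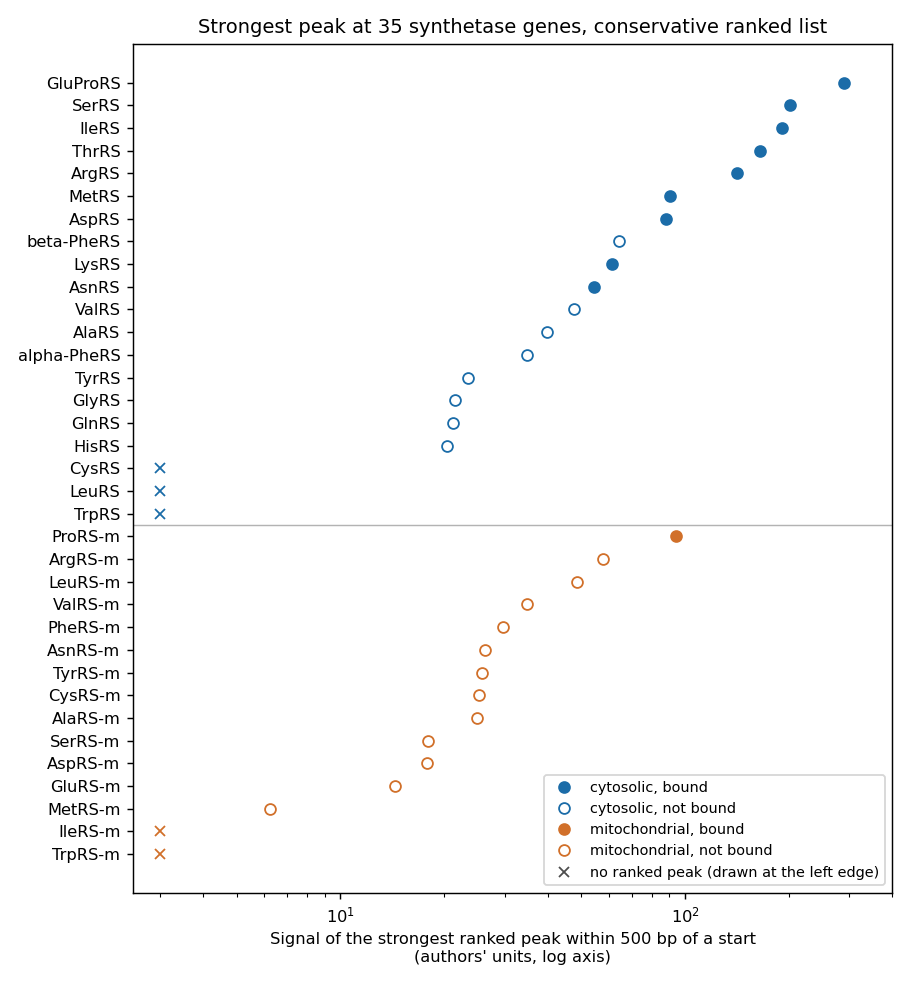
Signal of the strongest ranked peak within 500 bp of a start (authors' units, log axis) for each of the 35 synthetase genes, cytosolic genes above and mitochondrial genes below; filled points are bound, open points are not, and crosses mark genes with no ranked peak. The cytosolic genes spread up to 288.4 (GluProRS), while all mitochondrial genes but ProRS-m (94.1) lie at 57.88 or lower.

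Between these genes stood MetRS and AspRS, both on arm 2R. MetRS (FBgn0034401) had a signal of 90.4, rank 2225 and a summit 110 bp upstream of its start, at 2R:18850709. AspRS (FBgn0002069) had a signal of 88.0, rank 2308 and a summit 320 bp upstream of a start, at 2R:12879964, with a second summit 113 bp upstream that had a signal of 60.3. That start is an internal one of the annotated gene: a longer AspRS transcript begins further upstream, and with the outermost start alone AspRS was not bound. Over the 10 bound synthetase genes the median signal was 117.9, and over all 2330 bound genes it was 110.2. The bound synthetase genes thus spanned the list from rank 307 to rank 4108, with a median signal near that of other bound genes. Upstream summits made up 9 of 10, beside 87.0% of all bound genes.

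Most bound synthetase genes shared their summit with another gene. At 9 of the 10, a protein-coding gene that points the other way started within 500 bp of the same summit, so that binding cannot be assigned to one of the pair. The share of all bound genes with such a summit is not given here, so sharing is not shown to be particular to synthetase genes. By a different measure, 1521 of all 2330 bound genes had an opposite-strand start within 1000 bp, pointing away. GluProRS shared it with AP-1sigma, which encodes a subunit of a clathrin adaptor and whose start lay nearer, 123 bp from the summit. IleRS shared it with Hem, which encodes a subunit of the actin-regulating WAVE complex, 275 bp away and farther than the 195 bp to IleRS. In SerRS the summit fell between divergent starts 8 bp apart, 2 bp from SerRS and 6 bp from CG17260, and inside an intron of a longer CG17260 transcript.

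For ArgRS the neighbour was CG8578, at 159 bp, for ThrRS it was Patsas, at 220 bp, and for AspRS it was Nmda1, at 166 bp. Each of these lay nearer to the summit than the synthetase gene. The ProRS-m summit was nearest to the starts of CG42304 and Snup, which encodes a snurportin, an import receptor of small nuclear ribonucleoproteins, both 71 bp away. AsnRS was nearer than DCTN6-p27, a dynactin subunit gene, which lay 273 bp away, and MetRS, at 110 bp, was nearer than CG15084, at 135 bp. LysRS was the only one with no other gene's start within 500 bp of its summit. Its divergent neighbour Hecw starts 62 bp from the outermost LysRS start, on the side away from the intronic summit. This placed Hecw only just beyond 500 bp from the summit. The 427 bp between the LysRS gene and its summit are counted from an internal LysRS start. By the nearest start, 5 of the 10 summits belonged to the synthetase gene (AsnRS, IleRS, LysRS, MetRS and SerRS) and 5 to the neighbour (ArgRS, AspRS, GluProRS, ProRS-m and ThrRS). Over all protein-coding genes the same rule kept 1686 of the 2330 bound genes, a larger share than the 5 of 10 kept here.

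**Figure D2:**
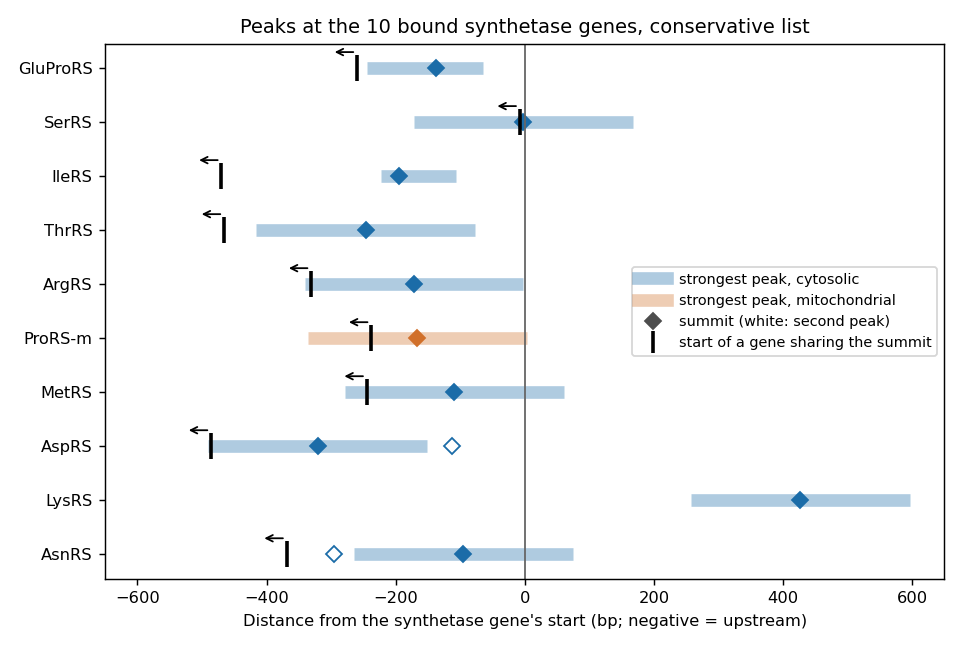
Peaks at the 10 bound synthetase genes, in order of signal, drawn by distance from the gene's start in bp (negative is upstream); bars are the strongest peak, filled diamonds its summit, white diamonds a second summit, and black ticks with arrows the nearest start of a gene that shares the summit. Summits lie upstream for 9 genes, with a neighbour's start on the far side, and at +427 bp with no sharing neighbour for LysRS.

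A divergent arrangement was common among synthetase genes as a whole. A divergent gene here has a protein-coding start on the opposite strand within 1000 bp, the pair pointing away from each other. Of the 35 synthetase genes 24 were divergent (68.6%), beside 36.2% of all protein-coding genes. They were 17 of the 20 cytosolic genes (85.0%) and 7 of the 15 mitochondrial ones (46.7%). All 10 bound synthetase genes were divergent, as were 1521 of all 2330 bound genes.

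Within the divergent genes, 10 of 24 synthetase genes were bound (41.7%), beside 30.1% of all 5052 divergent genes. By compartment they were 9 of 17 cytosolic genes (52.9%) and 1 of 7 mitochondrial genes (14.3%). Of the synthetase genes with no divergent neighbour none was bound, 0 of 3 cytosolic and 0 of 8 mitochondrial, beside 9.07% of all 8916 such genes. The cytosolic share thus stood above the mitochondrial one also among divergent genes, where the mitochondrial share rests on 7 genes. How far the arrangement accounts for the difference between the compartments was not tested.

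**Figure D3:**
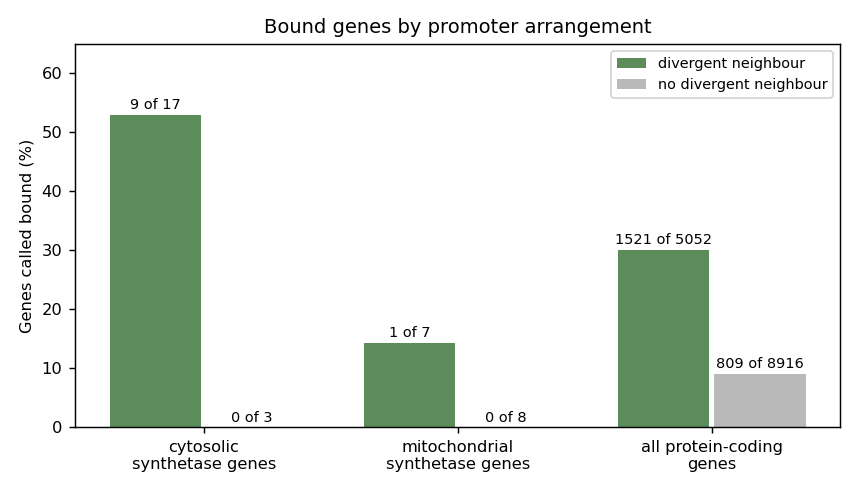
Share of genes called bound (%), split by whether the gene has a divergent protein-coding neighbour within 1000 bp, for cytosolic synthetase genes, mitochondrial synthetase genes and all protein-coding genes; the counts stand above the bars and there are no error bars, since each bar is a count of genes. Bound synthetase genes appear only among divergent genes: 9 of 17 cytosolic and 1 of 7 mitochondrial.

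The replicates were compared through their own lists, whose signals are not on one scale. In the list of replicate 1, 7 synthetase genes were bound (20.0%), beside 11.8% of all genes, and in that of replicate 2 they were 6 (17.1%), beside 13.0%. GluProRS had its strongest ranked peak at 150.7 in replicate 1 and 129.4 in replicate 2. SerRS had 109.1 and 91.89, and IleRS had 96.04 and 96.62. These genes, with ThrRS at 85.28 and 84.22 and ArgRS at 92.02 and 50.01, passed the threshold in each replicate. ArgRS ranked 823 in the thresholded list of replicate 1 and 1768 in that of replicate 2, the widest gap of the 5. SerRS ranked 598 and 620, the closest match.

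The other 5 bound genes were less firmly held. ProRS-m had 55.11 in replicate 1 and 35.79 in replicate 2, and AspRS had 53.00 and 32.54. Each passed in replicate 1 alone. MetRS, with 27.45 and 52.71, LysRS, with 34.14 and 32.17, and AsnRS, with 32.83 and 24.47, passed in neither and were called only where the replicates were compared with each other. The shares passing in both, in 1 and in neither replicate were thus 50%, 20% and 30% of the 10 genes, beside 58.9%, 23.0% and 18.2% of all 2330 bound genes. The only bound mitochondrial gene, ProRS-m, thus missed the threshold in replicate 2, where its IDR was 0.208. In the comparison of both replicates its IDR was 0.0003. One gene went the other way: beta-PheRS was in the thresholded list of replicate 2 (signal 43.47) and not in the conservative one.

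**Figure D4:**
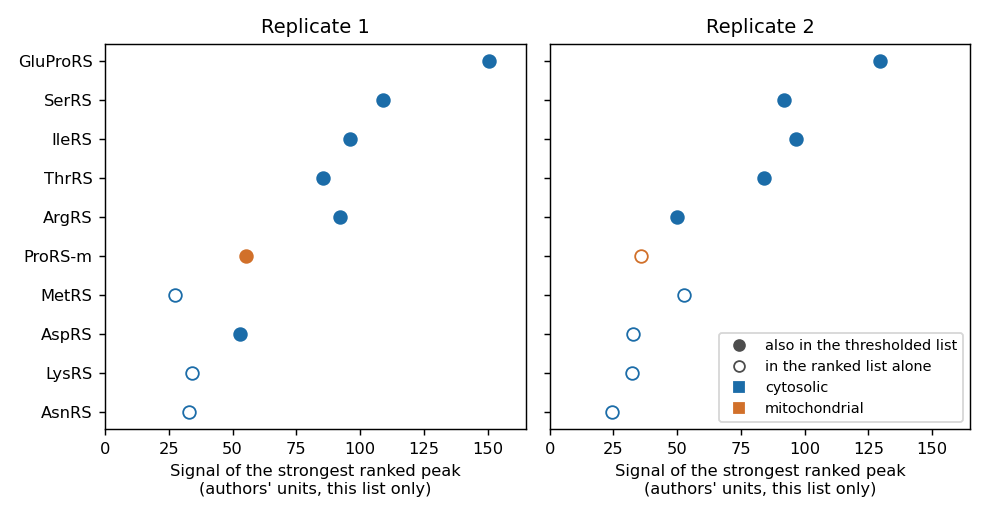
Signal of the strongest ranked peak within 500 bp of a start in replicate 1 (left) and replicate 2 (right) for the 10 bound synthetase genes (authors' units, each list on its own scale); filled points are also in that replicate's thresholded list. GluProRS, SerRS, IleRS, ThrRS and ArgRS are filled in both panels, ProRS-m and AspRS in replicate 1 alone, and MetRS, LysRS and AsnRS in neither.

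The genes that were not bound mostly had weak peaks. The ranked list, which also holds peaks that the replicates did not share, had a peak within 500 bp of a start for 30 of the 35 genes (85.7%), beside 67.8% of all genes. These were 17 of 20 cytosolic and 13 of 15 mitochondrial genes, so in this wider list the compartments were alike in count. The median of the strongest signals was 61.2 for the cytosolic and 25.7 for the mitochondrial genes, beside 30.8 for all genes with a ranked peak. The median of the lowest IDR, where a low value means that a peak recurred, was 0.00609 for the cytosolic and 0.569 for the mitochondrial genes, beside 0.489 for all. Both medians include the bound genes, 9 of the 17 cytosolic and 1 of the 13 mitochondrial ones, and the call itself rests on the IDR. They therefore largely restate the call and are no separate difference in strength. Counting only genes that were not bound, 8 cytosolic genes had a median signal of 29.2 and 12 mitochondrial genes one of 25.5, beside 25.8 for all such genes.

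Among cytosolic genes that missed the call, beta-PheRS came closest in signal, with 64.19 at an IDR of 0.0616, and its partner subunit alpha-PheRS had 34.82 at an IDR of 0.144. ValRS had 47.67 at an IDR of 0.0775. AlaRS had 39.75 at an IDR of 0.173, and the nearest conservative summit lay 1116 bp upstream of it. The remaining TyrRS, GlyRS, GlnRS and HisRS lay between 20.39 and 23.49, at IDRs of 0.419 or more. CysRS, LeuRS and TrpRS had no peak in this ranked list, and TrpRS had one of 13.99 in the ranked list of replicate 1. A shared divergent promoter was not enough for a call: LeuRS starts 216 bp from CG17593 and TrpRS is divergent from Vps16A.

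Of the mitochondrial genes that were not bound, ArgRS-m had the strongest peak, 57.88, at an IDR of 0.0126, just outside the threshold. In the ranked lists of the single replicates it had no peak within 500 bp in replicate 1 and one of 23.56 in replicate 2, at an IDR of 0.356. AsnRS and MetRS, at 0.00609 and 0.00512, were just inside. LeuRS-m had 48.63 at an IDR of 0.0648 and a conservative summit 859 bp upstream, outside the distance. The LysRS summit, at 427 bp, was the farthest inside it. ValRS-m had 34.86, PheRS-m 29.63 and AsnRS-m 26.22. TyrRS-m, CysRS-m and AlaRS-m lay between 24.88 and 25.71, and SerRS-m, AspRS-m, GluRS-m and MetRS-m between 6.251 and 17.91. IleRS-m and TrpRS-m had no peak in that list, and TrpRS-m had one of 12.74 in the ranked list of replicate 1.

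The compartments were also compared within enzymes of one name. For 13 names the annotation has both a cytosolic and a mitochondrial gene, counting alpha-PheRS and beta-PheRS as one. The cytosolic gene was bound in 6 of these (ArgRS, AsnRS, AspRS, IleRS, MetRS and SerRS), and the mitochondrial gene in 0 of 13, beside 16.7% of all genes. The matching by name leaves out ProRS-m, the only bound mitochondrial gene, since its cytosolic counterpart is named GluProRS, and GluRS-m for the same reason. Isoleucine had the widest gap: IleRS had a signal of 191.4 and IleRS-m had no ranked peak. In the other direction, LeuRS and CysRS had none while LeuRS-m had 48.63 and CysRS-m 25.26, and TyrRS had 23.49 while TyrRS-m had 25.71, none of them bound. TrpRS and TrpRS-m both had no peak in this list.

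Synthetases fall into classes I and II by the fold of the catalytic domain, and in mammals some of the cytosolic ones are held in a multisynthetase complex. These groupings were applied after the values had been seen and are a description only. Of class I, 3 of 18 genes were bound (ArgRS, IleRS and MetRS), and of class II 6 of 16, or 16.7% and 37.5%, beside 16.7% of all genes, while GluProRS holds a catalytic domain of each class. Among cytosolic genes this was 3 of 9 in class I and 5 of 10 in class II. Of the 8 cytosolic genes whose mammalian counterparts are in the complex, 6 were bound: ArgRS, AspRS, GluProRS, IleRS, LysRS and MetRS, but not GlnRS or LeuRS. Of the 12 others 3 were bound, namely AsnRS, SerRS and ThrRS. All 8 genes of the complex group were divergent, so their 75.0% stands beside 30.1% of all divergent genes. Of the 12 others 9 were divergent, and 3 of these 9 were bound (33.3%).

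Other genes of tRNA charging and its surveillance were taken from a list of 17, of which 16 were found in the annotation. Of these, 4 were bound (25.0%), close to the share of synthetase genes, beside 16.7% of all genes. All 4 have a divergent neighbour, so the call does not assign binding to these genes alone. THG, the guanylyltransferase that adds the base read by HisRS to histidine tRNA, had a signal of 181.9, with 76.80 in replicate 1 and 105.0 in replicate 2. GatA, a subunit of the mitochondrial amidotransferase that turns glutamate on glutamine tRNA into glutamine, had 122.0, with 51.74 and 71.76. eEF1alpha1, the elongation factor that carries charged tRNAs to the ribosome, had 116.9, with 52.50 and 71.69. These 3 passed in each replicate. AIMP1, whose mammalian counterpart is a scaffold of the multisynthetase complex, had 46.47 at an IDR of 0.00997, at the edge of the threshold, and passed in neither.

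The remaining 12 genes of the list were not bound. Of the other scaffold genes, AIMP2 had a ranked signal of 21.90 and AIMP3 had no ranked peak. Of the other amidotransferase subunits, GatB had 14.93 and GatC 47.82. The mitochondrial elongation factors mEFTu1 and mEFTu2 had 22.81 and 36.58, and the second cytosolic factor, eEF1alpha2, had 44.32. Slimp, a synthetase-like gene of Drosophila, had 20.56, and Dtd, a deacylase that removes wrongly attached D-amino acids, had 16.90. Of the list, 3 genes act when charged tRNA runs short. The kinase gene Gcn2 had 48.59. The gene crc, which encodes the fly ATF4, had 24.27, and a conservative summit lay 539 bp upstream of it, just outside the distance. Thor, a target of ATF4 and a translation inhibitor, had 56.08. Both crc and Thor were in the thresholded list of replicate 2 and not in that of replicate 1, and Thor was also in the series-level thresholded list. The 4 bound genes of the list were divergent, as were 8 of its 16 members.

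The gene starts were also searched for words, which the naming rule did not use. CAGCTG, an E-box that reads the same on both strands, was searched from 250 bp upstream to 50 bp downstream of each gene's outermost start. It was found at 17 of the 35 synthetase genes (48.6%), beside 17.7% of all protein-coding genes and 22.0% of divergent ones. It was as common at cytosolic genes, 10 of 20, as at mitochondrial ones, 7 of 15, and at bound genes, 5 of 10, as at those not bound, 12 of 25. The share with an E-box thus hardly differed by compartment or by binding. Examples from each compartment are given on the gene's own strand, with the E-box in capitals and 10 bp on either side.
ArgRS, bound, X:15844177-15844202: gtgacatcacCAGCTGttatcgttat
GluProRS, bound, 3R:23958348-23958373: tagacgttagCAGCTGgccgtactcg
IleRS, bound, 3L:22288576-22288601: gtgctgtcgtCAGCTGattatcaagg
SerRS, bound, 2L:3037517-3037542: ctattttgaaCAGCTGctaaaagcaa
TrpRS, not bound, 3R:9267021-9267046: tgcagcgcaaCAGCTGattttccaga
ArgRS-m, not bound, 3R:7887056-7887081: gatgtcaaaaCAGCTGatgtgcagcg
LeuRS-m, not bound, 3L:4825853-4825878: tgcagagaaaCAGCTGttcgattgta
MetRS-m, not bound, 3R:14259981-14260006: actggtggcaCAGCTGttcaatgtta
TrpRS-m, not bound, 3L:17849690-17849715: tcactgttcaCAGCTGtcgtaccggc

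In all, the 17 gene starts held 21 E-boxes. The 11 at cytosolic genes lay from 245 bp upstream to 31 bp downstream of the start, 9 of them upstream. The 10 at mitochondrial genes lay nearer, from 68 bp upstream to 28 bp downstream, 5 of them upstream. AlaRS-m held 3 and TyrRS and TyrRS-m held 2 each.

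**Figure D5:**
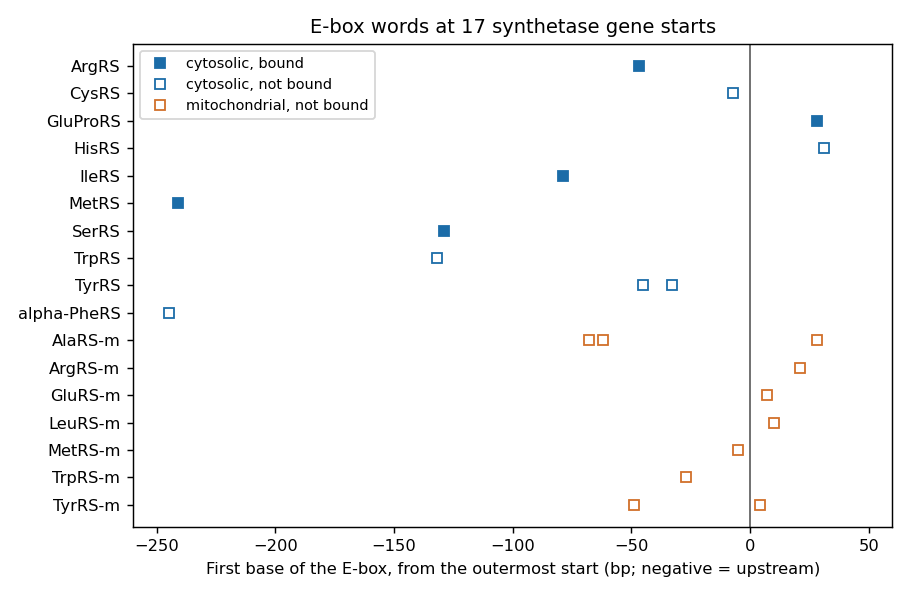
Position of the first base of each E-box relative to the outermost gene start, in bp (negative is upstream), for the 17 synthetase genes that hold one; filled squares are bound genes, open squares genes not bound, blue cytosolic and orange mitochondrial. The 21 E-boxes lie from -245 to +31 bp, and bound and unbound genes are mixed.

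Other words in the same windows stood out less or went the other way. CGTAT was found at 4 of the 35 starts (11.4%), beside 28.9% of all genes, and at 0 of 20 cytosolic and 4 of 15 mitochondrial genes (SerRS-m, TrpRS-m, TyrRS-m and ValRS-m), none of them bound. The DRE was found at 5 (14.3%), namely AlaRS, ArgRS, IleRS, TrpRS and PheRS-m, beside 9.36% of all genes. Motif 1 was found at 5 (14.3%), namely beta-PheRS, GlnRS, AsnRS-m, AspRS-m and ProRS-m, beside 7.70%. TATAAA was found at 19 (54.3%), beside 45.9%. GAGAG was found at 6 (17.1%), beside 29.8%, and GCGCGC at 1 (2.86%), TyrRS-m, beside 5.27%. A match in these windows is a description of the letters and not a site of binding.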

How the data were processed

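The deposited files are 8 peak lists on dm6, a ranked and a thresholded one for each replicate and for 2 comparisons of both replicates. Per the file headers the series lists derive from the alignments of both replicates. Which aligner and peak caller were used is not stated in the labels or headers read. The authors' signal per peak has no stated scale and was used within 1 list only. The deposited score follows the IDR, and thresholded lists hold scores of 830 or more. The deposited −log10 of the IDR in the ranked lists was turned back into an IDR.

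Starts came from Ensembl release 115 (BDGP6.54), whose arms match dm6. Summits, distances and words were computed with Python 3.11.15, numpy 2.4.6 and pandas 2.3.3, and the calling code was tested on simulated data. The conservative thresholded list was the main one, with 4593 of its 4594 peaks on arms. Of the ranked peaks at the threshold score, 82 are missing from it, 0 of them within 500 bp of a synthetase start. The alternatives are given in the closing section.

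All synthetase genes, the pathway list and neighbours sharing a summit were named. One of the 17 listed genes had no match. Members and lists were chosen with earlier results of these data known. No test was made: there is 1 group, and genes are not replicates.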

Additional observations from a re-analysis of the deposited data

How the results depend on the processing

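Of the 10 alternatives, 8 kept the count of bound synthetase genes within 1.5 times of 10. Leaving out one replicate gave 6 to 7 genes in all (17.1% and 20.0%, beside 13.04% and 11.8% of all genes), 6 cytosolic genes either way, and 0 to 1 mitochondrial genes. Without replicate 1, AsnRS, AspRS, LysRS, MetRS and ProRS-m were lost and beta-PheRS was gained; without replicate 2, AsnRS, LysRS and MetRS were lost. Giving each summit only to the nearest start left 5 genes in all (14.3%, beside 12.07% of all genes), 5 cytosolic and 0 mitochondrial. A distance of 1000 bp gave 2 mitochondrial genes (13.3%, beside 19.75% of all genes; LeuRS-m gained), and an IDR of 0.05 in the ranked list, chosen after seeing the data, also gave 2 (13.3%, beside 20.1%; ArgRS-m gained). At 200 bp LysRS and ThrRS were lost, in the series-level list AsnRS, among peaks above the median signal AsnRS, AspRS and LysRS, and with the outermost start AspRS. IleRS and SerRS were bound under all 10 alternatives, ArgRS and GluProRS under 9. The cytosolic share exceeded the mitochondrial one under each. Divergent synthetase genes numbered 22 of 35 at 500 bp (62.9%), beside 27.3% of all genes. No paired analysis was possible because there is only 1 group. Depth is unknown, so a gene not bound is one where no reproducible peak was called.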
